A study of Homo sapiens with 8 samples.

Results

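The distal end of the long arm of chromosome 19 carries a dense cluster of zinc finger genes. The list examined here names 47 of them, from ZNF582 at its centromere side to ZNF446 near the telomere. A probe was taken as a member when its platform gene symbol was on the list, and 44 of the 47 genes were found in this way among the 16578 named genes of the array, with 45 probes of 22184 in all. ZNF274 has 2 probes and every other member has 1. ZNF154, ZNF550 and ZNF814 matched no probe and are not analysed here. The list was chosen by gene position together with detection and signal level in these same arrays. Differences of its members between lines are therefore given as a description, with no p-value, and the shares of called members are set beside the share over all probes without further reading.

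The 8 arrays, Illumina HumanRef-8 BeadChips, cover 4 lines with 2 arrays each. WT is Jurkat, a human T cell leukaemia line, untreated. TR1, TR2 and TR3 are TRAIL-resistant Jurkat subclones, each raised by selection at 1000 ng/mL TRAIL for 12 weeks, and TRAIL is a death ligand of the tumour necrosis factor family. Per the labels the arrays of a line are biological duplicates, and cell cultures were not treated before RNA was taken. Each subclone is 1 line and no unselected subclone was profiled, so resistance, subcloning and time in culture cannot be told apart. In RNA from a whole culture, fewer cells that express a gene and less RNA per cell cannot be told apart either.

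Most genes of this cluster encode proteins with an N-terminal KRAB domain and a row of zinc fingers that read DNA. In general, the KRAB domain recruits the scaffold TRIM28, which brings the histone methyltransferase SETDB1 and heterochromatin protein to the bound site, many of them retroelements. The genes themselves lie in tandem, arose by duplication, and many carry CG-rich promoters. Several, among them ZNF582, ZNF471, ZNF667, ZNF671 and ZNF154, are known for promoter methylation in tumours. Methylation was not measured in these samples.

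The promoters of ZNF544, of the protein-coding neighbours of ZNF544 on either side, ZNF274 and ZNF8, and of ZNF418 are printed below, because ZNF544 changed between detected and not detected while both neighbours stayed detected and ZNF418 was detected on no array. Each window holds 300 bases, 250 before and 50 from the annotated start onward (RefSeq, GRCh38.p14), written 5′ to 3′ on the strand of the gene. Capitals mark every CG step, the pair of bases at which DNA methylation occurs in human cells. The windows lie at chr19:58182811-58183110 on the plus strand for ZNF274, chr19:58228664-58228963 on the plus strand for ZNF544, chr19:58278705-58279004 on the plus strand for ZNF8 and chr19:57935353-57935652 on the minus strand for ZNF418.
ZNF274: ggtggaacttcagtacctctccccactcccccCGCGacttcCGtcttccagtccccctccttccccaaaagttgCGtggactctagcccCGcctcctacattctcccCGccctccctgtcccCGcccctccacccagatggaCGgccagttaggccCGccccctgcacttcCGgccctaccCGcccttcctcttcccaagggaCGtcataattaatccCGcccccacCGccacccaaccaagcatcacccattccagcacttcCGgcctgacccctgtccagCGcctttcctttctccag
ZNF544: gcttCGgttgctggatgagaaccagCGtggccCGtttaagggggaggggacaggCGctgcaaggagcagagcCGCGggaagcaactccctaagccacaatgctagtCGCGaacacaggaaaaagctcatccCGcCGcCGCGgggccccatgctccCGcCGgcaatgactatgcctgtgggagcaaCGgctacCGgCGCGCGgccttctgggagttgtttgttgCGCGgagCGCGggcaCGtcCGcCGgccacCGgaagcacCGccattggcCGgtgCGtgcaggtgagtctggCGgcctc
ZNF8: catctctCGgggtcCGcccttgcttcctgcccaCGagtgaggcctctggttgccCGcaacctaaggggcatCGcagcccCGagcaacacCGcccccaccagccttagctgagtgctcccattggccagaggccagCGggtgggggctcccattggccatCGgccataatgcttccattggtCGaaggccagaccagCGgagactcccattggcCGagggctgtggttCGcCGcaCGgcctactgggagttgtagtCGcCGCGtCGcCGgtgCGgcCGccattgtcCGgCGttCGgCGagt
ZNF418: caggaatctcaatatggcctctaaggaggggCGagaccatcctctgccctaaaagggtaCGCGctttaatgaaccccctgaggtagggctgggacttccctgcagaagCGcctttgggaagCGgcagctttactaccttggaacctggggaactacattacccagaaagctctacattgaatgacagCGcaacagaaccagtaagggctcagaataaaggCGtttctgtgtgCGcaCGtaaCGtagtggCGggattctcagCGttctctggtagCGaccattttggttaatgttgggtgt
The ZNF544 window holds 31 CG steps, the ZNF8 window 26, the ZNF274 window 16 and the ZNF418 window 13. At least 31 CG steps occur in 20.7% of all 35116 promoter windows of the annotation.

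Windows were available for 43 of the listed genes, 48 windows in all. Their median was 23 CG steps (range 3 to 42) and that of all windows was 14. By detection, the median was 24.5 for members detected on all 8 arrays (30 windows), 20 for those detected on some (7 windows) and 30 for those detected on none (8 windows). The classes overlapped widely: ZNF667, with the most CG steps at 42, was detected on no array, and ZNF446, detected on all 8, has 2 windows, of which 1 holds the fewest at 3 and the other 33. Of 3 motifs searched on both strands, GGGCGG, the core of a GC box, occurred in 64.6% of member windows and 45.0% of all windows. CCAAT, the core of the CCAAT box, occurred in 56.2% and 34.6%, and TATAAA, a form of the TATA box, in 2.08% and 11.5%. The searched motifs do not overlap each other. The ZNF544 window held 1 CCAAT and no GGGCGG, that of ZNF8 held 4 CCAAT and 2 GGGCGG, that of ZNF274 held 5 GGGCGG and no CCAAT, and that of ZNF418 held neither. A match describes letters and not a bound site.

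**Figure D1:**
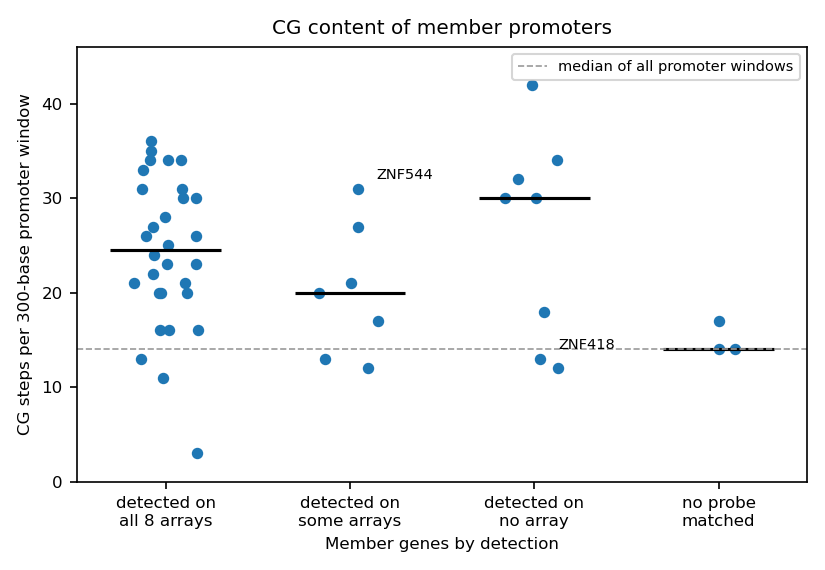
CG steps per 300-base promoter window (vertical axis) for member genes grouped by detection (horizontal axis), 1 point per window. The dashed line is the median of all promoter windows, 14, and the classes overlap: windows of members detected on no array run from 12 to 42 and those of members detected on all 8 from 3 to 36.

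Between 12408 and 13437 probes were detected per array at a detection p-value under 0.05, the threshold for on throughout, and the median deposited intensity of an array ran from 68.1 to 83. Of 11 T cell marker genes on the array, among them CD3D, CD3E, LCK and ZAP70, all 11 were detected on all 8 arrays. Of 5 B cell markers, MS4A1, PAX5 and CD22 were detected on none and CD79A and CD79B on all 8. Of 5 myeloid markers, CD14, CSF1R and MPO were detected on none, LYZ on 2 arrays and SPI1 on 3. Of 3 erythroid markers, EPOR and HBA1 were detected on all 8 and HBB on none. Of 6 fibroblast or epithelial markers, KRT8, KRT19 and COL1A2 were detected on none, EPCAM on 1 array, KRT18 on 3 and COL1A1 on 6. Their part in the results was not tested. Whether probes with near-identical targets, such as those of ZNF417, ZNF587 and ZNF552, read 1 transcript or several was not tested, since the files hold no probe sequences.

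The listed members were mostly on in Jurkat cells and mostly in the same state in every line. In total 29 of the 44 member genes (65.9%) were detected on all 8 arrays, 7 (15.9%) on none and 8 on some. Over all named genes 56.9% were detected on all 8 arrays and 28.5% on none. WT detected 32 member genes on both of its arrays (72.7%), TR1 34 (77.3%), TR2 33 (75.0%) and TR3 34 (77.3%). For zinc finger genes elsewhere on chromosome 19 (167 genes) the shares on all 8 arrays and on none were 61.1% and 22.8%, and for those on other chromosomes (281 genes) 71.9% and 17.8%.

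The 7 members detected on no array were ZNF582, ZNF667, ZNF547, ZNF749, ZNF587, ZNF418 and ZNF135. ZNF582 and ZNF667 are among the genes named above for methylation in tumours, ZNF418 is known as a repressor of signalling through the MAP kinase pathway, and ZNF587 as a KRAB repressor of primate retroelements. ZNF470 was detected on 1 array of TR1 and 1 of TR2 and on no other. The probes of these 8 genes read between 44.4 and 71.2 and did not enter the fit. They lie at several places along the cluster and not in 1 block, since each has a member detected on all 8 arrays within a few places of it in gene order.

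**Figure D2:**
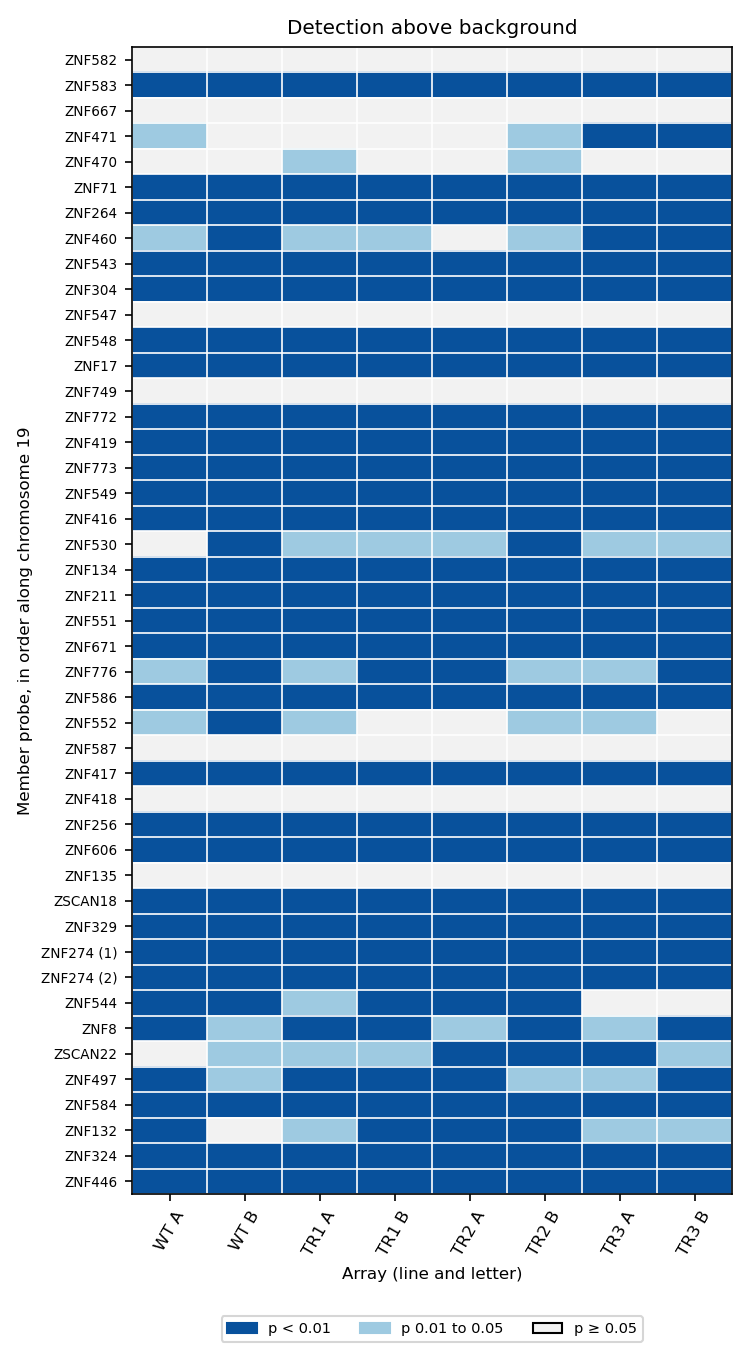
Detection of the 45 member probes (rows, in order along the chromosome) on the 8 arrays (columns). Dark cells have a detection p-value under 0.01, light blue cells from 0.01 to 0.05 and grey cells 0.05 or more; ZNF544 is the one row that is detected on both arrays of WT, TR1 and TR2 and grey on both TR3 arrays.

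A probe counted as switched when it was detected on both arrays of at least 1 line and on neither array of at least 1 other. Only the 37 member probes, for 36 genes, that were detected on both arrays of some line could meet this, and 2 did, ZNF544 and ZNF471 (5.41%). Of all 13130 probes that passed the same filter, 6.44% switched. The share of switched probes was 5.79% for zinc finger genes elsewhere on chromosome 19 (7 of 121 probes) and 4.07% on other chromosomes (10 of 246). For other zinc finger genes lying between the outermost members it was 40.0% (2 of 5 probes), through ZIM3 and ZNF805. ZIM3 read from 57.1 to 80.7 and ZNF805 from 56.1 to 76.3, near background. The genes were listed as prone to silencing in clones. Among them ZNF544 alone was detected on both arrays of some lines and on neither of another with a level difference wider than its duplicate gap. Nearest to the threshold were ZSCAN22 on TR3 array B, with a detection p-value of 0.0444, and ZNF471, ZNF552 and ZNF587 with 0.0543 on 1 array each.

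ZNF544, a KRAB zinc finger gene between ZNF274 and ZNF8, differed from WT in all 3 subclones and in both directions. The deposited intensities were 136 and 96.9 on the WT arrays, 72.8 and 73.2 in TR1, 289 and 240 in TR2, and 63.0 and 57.4 in TR3. TR2 was highest and TR3 lowest, and the arrays of no line overlapped those of another. Detection p-values were 0 on both WT arrays and both TR2 arrays, 0.0217 and 0 in TR1, and 0.304 and 0.478 in TR3, so TR3 lay at background.

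After background correction and quantile normalisation the log2 signal of ZNF544 was 6.56 and 6.0 in WT, 5.03 and 5.28 in TR1, 7.86 and 7.69 in TR2, and 4.45 and 4.35 in TR3. The log2 difference from WT was -1.13 ± 0.17 (SE, n = 2 arrays per line) in TR1, 1.5 ± 0.17 in TR2 and -1.88 ± 0.17 in TR3. On a linear scale TR2 was 2.82-fold above WT, WT 2.19-fold above TR1 and TR2 6.17-fold above TR1. TR3 has only a bound, since its signal was not above background: WT was at least 2.89-fold higher, TR1 at least 1.32-fold higher and TR2 at least 8.16-fold higher than TR3. These bounds hold only under the background correction used. On the authors' processed values with the replicate number as a block, the log2 difference of TR3 from WT was -1.04. The 4 line means spanned 3.38 log2 units and the widest gap between duplicate arrays was 0.55. A span of at least 3.38 was reached by 8 of the 13130 probes, ZNF544 included.

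The genes that flank ZNF544 did not show differences of its size. ZNF274 is a KRAB and SCAN domain protein known to bring SETDB1 to the 3′ ends of zinc finger genes. Its brighter probe read 450 and 443 in WT, 386 and 371 in TR1, 460 and 362 in TR2, and 462 and 388 in TR3. In these intensities both TR1 arrays lay under both WT arrays, and TR2 and TR3 overlapped with each other and with WT. After normalisation both TR3 arrays (8.57 and 8.32) as well as both TR1 arrays (8.52 and 8.52) lay below both WT arrays (8.64 and 8.7). TR2 overlapped with WT, and in the dimmer probe TR1 and TR3 overlapped with WT too. The log2 differences from WT were -0.15, -0.15 and -0.23 (each ± 0.12) for TR1, TR2 and TR3, and those of the dimmer probe were 0.09, 0.10 and -0.11 (each ± 0.14).

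ZNF8, a KRAB zinc finger gene on the other side, read 76.3 and 61.4 in WT, 76.2 and 70.6 in TR1, 76.5 and 77.5 in TR2, and 73.2 and 81.0 in TR3. It was detected on all 8 arrays, close to background, where a change would be hard to see. Both TR2 arrays read above those of WT and TR1, whereas after normalisation both TR1 arrays lay above those of WT and TR2. Its log2 differences were 0.17, 0.0 and 0.04 (each ± 0.14), and the span of its line means, 0.17, was smaller than its widest duplicate gap, 0.37.

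**Figure D3:**
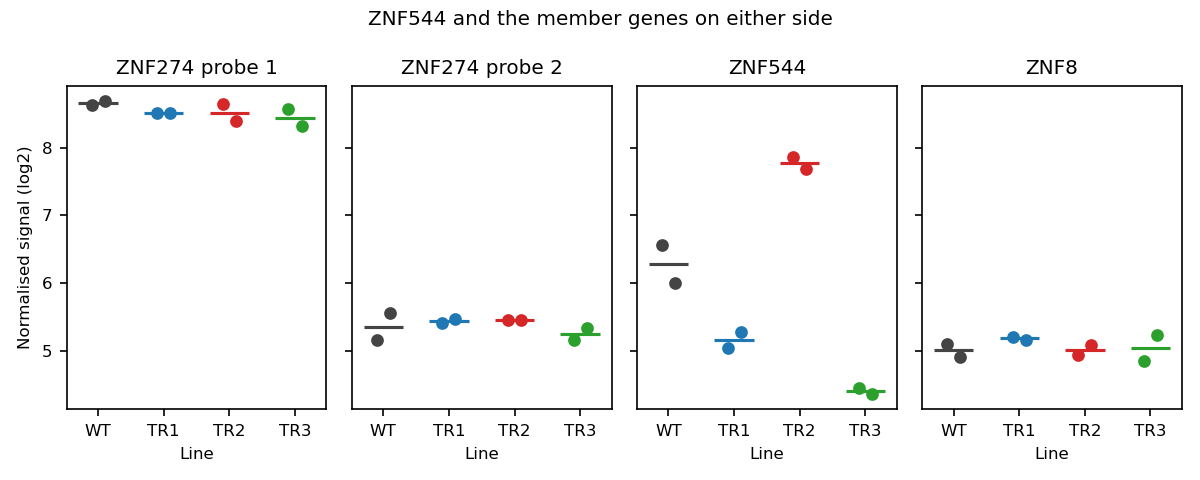
Normalised log2 signal of ZNF544 and of the probes of its protein-coding neighbours ZNF274 and ZNF8 by line, with 1 point per array and a bar at the line mean. ZNF544 spans 3.38 log2 units between TR2 and TR3; levels of different probes in different panels are not comparable, and only the spread within a panel is to be read.

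ZNF471, a KRAB zinc finger gene named above for methylation in tumours, switched by detection but not by level. Its intensities were 71.5 and 55.6 in WT, 67.9 and 57.0 in TR1, 63.4 and 74.5 in TR2, and 77.1 and 72.2 in TR3. It was detected on both TR3 arrays, on neither TR1 array and on 1 array each of WT and TR2. In intensity both TR3 arrays lay above those of WT and TR1 by little, TR2 overlapped with every line, and after normalisation TR3 overlapped with WT too, where TR3 array B and WT array A both had a log2 signal of 4.89. The log2 differences from WT were -0.12, -0.07 and 0.19 (each ± 0.18). The line means spanned 0.31 and the widest duplicate gap was 0.52, so the difference was smaller than the spread between duplicates.

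The other members detected on only some arrays were near background too. ZNF552 was detected on 5 arrays, both of them in WT and 1 in each subclone, and its log2 differences lay between -0.23 and -0.18 (± 0.13). ZNF460 missed detection on 1 TR2 array, and ZNF530, ZSCAN22 and ZNF132 on 1 WT array each. ZNF471 and ZNF552 passed the filter through 1 line alone.

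The members called in the fit over all probes (limma, adjusted p under 0.05) were ZNF544 and ZNF134, and the list was chosen with these contrasts in view. For TR1 against WT 2 of 37 member probes were called, ZNF134 higher and ZNF544 lower, where 2.25% of all tested probes were called. For TR2 it was 1 of 37, ZNF544 higher, where 0.632% of all were called. For TR3 it was 1 of 37, ZNF544 lower, where 0.297% were called. By the moderated F test among the subclones it was 1 of 37, ZNF544, where 3.71% were called.

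The labels give replicate numbers, and differences between replicates correlated between lines. On the authors' processed values with the replicate number as a block more members were called. For TR1 there were 3, with ZNF446 added, where 8.77% of all probes were called. For TR2 there were 3, with ZNF256 and ZNF416 added, where 3.88% were called. For TR3 there was still ZNF544 alone, where 2.25% were called, and among the subclones there were 5 (ZNF134, ZNF256, ZNF416, ZNF544 and ZNF549), where 12.8% were called. The ZNF544 call in TR1 was lost without TR1 array A and with no filter on dim probes, and that in TR2 without TR2 array A.

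ZNF134 read 170 and 158 in WT, 214 and 200 in TR1, 181 and 167 in TR2, and 188 and 204 in TR3. Both TR1 arrays lay above both arrays of WT and TR2, and overlapped with TR3 in these unnormalised values. After normalisation its log2 signal was 7.01 and 6.99 in WT, 7.53 and 7.49 in TR1, 7.0 and 7.01 in TR2, and 7.06 and 7.25 in TR3, and TR1 stood above every other line. The difference from WT was 0.51 ± 0.11 in TR1, 0.01 ± 0.11 in TR2 and 0.16 ± 0.11 in TR3. This TR1 call was lost without each of the 8 arrays in turn and when the arrays of WT and TR1 were fitted alone.

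Apart from ZNF544, the tested members moved little. Of the other 36 probes, 34 lay within 0.5 log2 units of WT in all 3 subclones, and the span of the line means ran from 0.09 to 0.63 with a median of 0.28, against 0.25 over all tested probes. The span exceeded the widest duplicate gap in 18 of 37 member probes (48.6%), and for all named genes in 45.2%. SEs ran from 0.10 to 0.18.

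**Figure D4:**
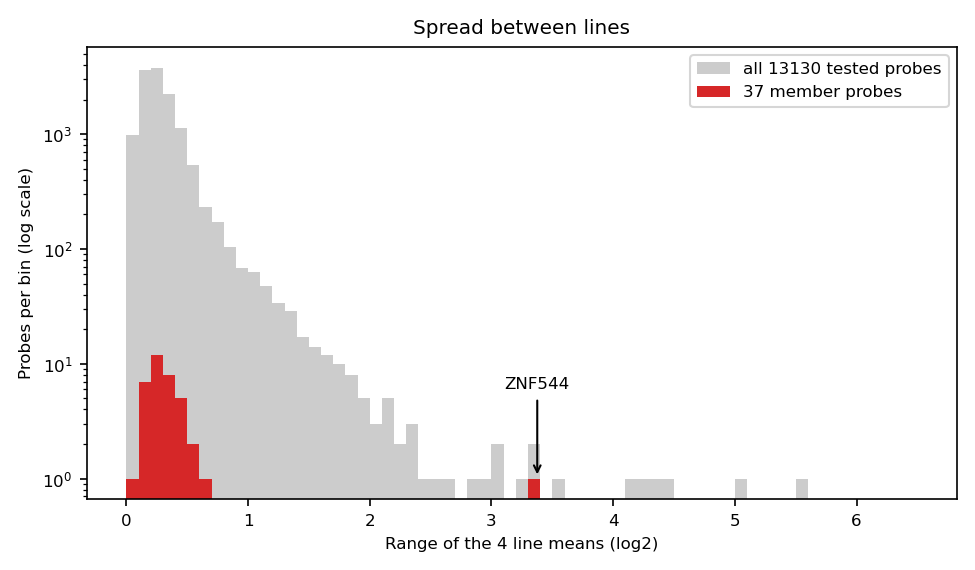
Distribution over probes of the range of the 4 line means in log2 units, with counts per bin on a log axis, for all 13130 tested probes (grey) and the 37 member probes (red). The member probes lie between 0.09 and 0.63 with the one exception of ZNF544 at 3.38.

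The widest spans after ZNF544 belonged to members that were lower in TR2 or higher in TR1. ZNF549 had log2 signals of 6.97 and 7.42 in WT, 7.40 and 7.38 in TR1, 6.87 and 6.66 in TR2, and 6.89 and 7.13 in TR3. Its TR2 arrays lay below those of every other line, and the differences from WT were 0.20, -0.43 and -0.19 (each ± 0.16).

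ZNF446, which has both a KRAB and a SCAN domain, had 7.38 and 7.29 in WT, 7.78 and 7.90 in TR1, 7.94 and 7.56 in TR2, and 7.65 and 7.37 in TR3. Both TR1 and both TR2 arrays were above both WT arrays. The differences were 0.51, 0.41 and 0.17 (each ± 0.15), and the TR1 difference was 0.42 and called with the replicate block.

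ZNF416 had 7.74 and 8.0 in WT, 7.93 and 8.02 in TR1, 7.53 and 7.43 in TR2, and 7.67 and 7.71 in TR3, with TR2 below every other line. Its differences were 0.10, -0.39 and -0.18 (each ± 0.12). ZNF256, a KRAB zinc finger gene, had 8.23 and 8.50 in WT, 8.40 and 8.56 in TR1, 7.93 and 8.09 in TR2, and 8.18 and 8.15 in TR3. TR2 was again below the other lines, and the differences were 0.11, -0.36 and -0.20 (each ± 0.13). With the replicate block the TR2 differences of ZNF416 and ZNF256 were -0.32 and -0.31, and both were called.

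The other members of wide span also had lower means in TR2 than in TR1, and none was called. ZNF71, known as a zinc finger gene induced by tumour necrosis factor in endothelial cells, had 5.91 and 5.88 in WT, 6.03 and 5.93 in TR1, 5.63 and 5.5 in TR2, and 5.98 and 5.70 in TR3. Its differences were 0.09, -0.33 and -0.05 (each ± 0.12). ZNF304, a KRAB repressor known for silencing of the INK4-ARF locus in colorectal cancer cells, had 6.06 and 6.0 in WT, 6.06 and 6.14 in TR1, 5.71 and 5.68 in TR2, and 6.04 and 5.95 in TR3. In both genes the TR2 arrays were the lowest, and the ZNF304 differences were 0.07, -0.34 and -0.04 (each ± 0.10).

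ZNF606, a KRAB repressor, had 6.92 and 6.80 in WT, 7.21 and 6.98 in TR1, 6.67 and 6.67 in TR2, and 6.88 and 7.03 in TR3, with differences of 0.23, -0.19 and 0.09 (each ± 0.12). ZNF543 had 6.43 and 6.79 in WT, 6.23 and 6.51 in TR1, 6.27 and 6.29 in TR2, and 6.41 and 6.42 in TR3. All 3 subclones had lower means than WT, with differences of -0.25, -0.34 and -0.20 (each ± 0.14), the TR1 arrays overlapped with WT, and those of TR2 and TR3 lay below it.

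Without ZNF544, 28 of 36 member probes (77.8%) had a lower mean in TR2 than in TR1, with a median difference of -0.11, whereas 53.7% of all tested probes did, with a median of -0.02. Both TR2 arrays lay below both TR1 arrays for 18 of the 36 (50.0%) and for 26.4% of all tested probes. The count of 28 was added after the values were seen. It lay between 27 and 29 without background correction, with cyclic loess, on the authors' processed values and without each TR1 or TR2 array. The share with TR2 below TR1 was 69.4% for zinc finger genes elsewhere on chromosome 19 (84 of 121 probes) and 65.9% on other chromosomes (162 of 246), with medians of -0.13 and -0.07. For the unlisted zinc finger genes of the interval it was 100% (5 of 5 probes, median -0.15). For listed co-repressor, heterochromatin and DNA methylation genes it was 63.3% (19 of 30 probes, median -0.04). The lean was therefore also present in zinc finger genes outside the cluster and in a list of other genes. No difference between these groups was tested.

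Against WT, 10 of the 36 (27.8%) were lower in TR1, 24 (66.7%) in TR2 and 21 (58.3%) in TR3, beside 46.7%, 49.8% and 48.7% of all tested probes. These comparisons share the WT arrays. The TR1 count rested on WT array A, without which 17 of the 36 were lower than WT. The TR3 count depended on the WT arrays too. Without WT array B it was 17 (47.2%), beside 50.7% of all tested probes, and without WT array A 25 (69.4%). The TR2 count was 26 without WT array A and 23 without WT array B. The differences ran from -0.25 to 0.51 in TR1, from -0.43 to 0.41 in TR2 and from -0.31 to 0.19 in TR3.

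**Figure D5:**
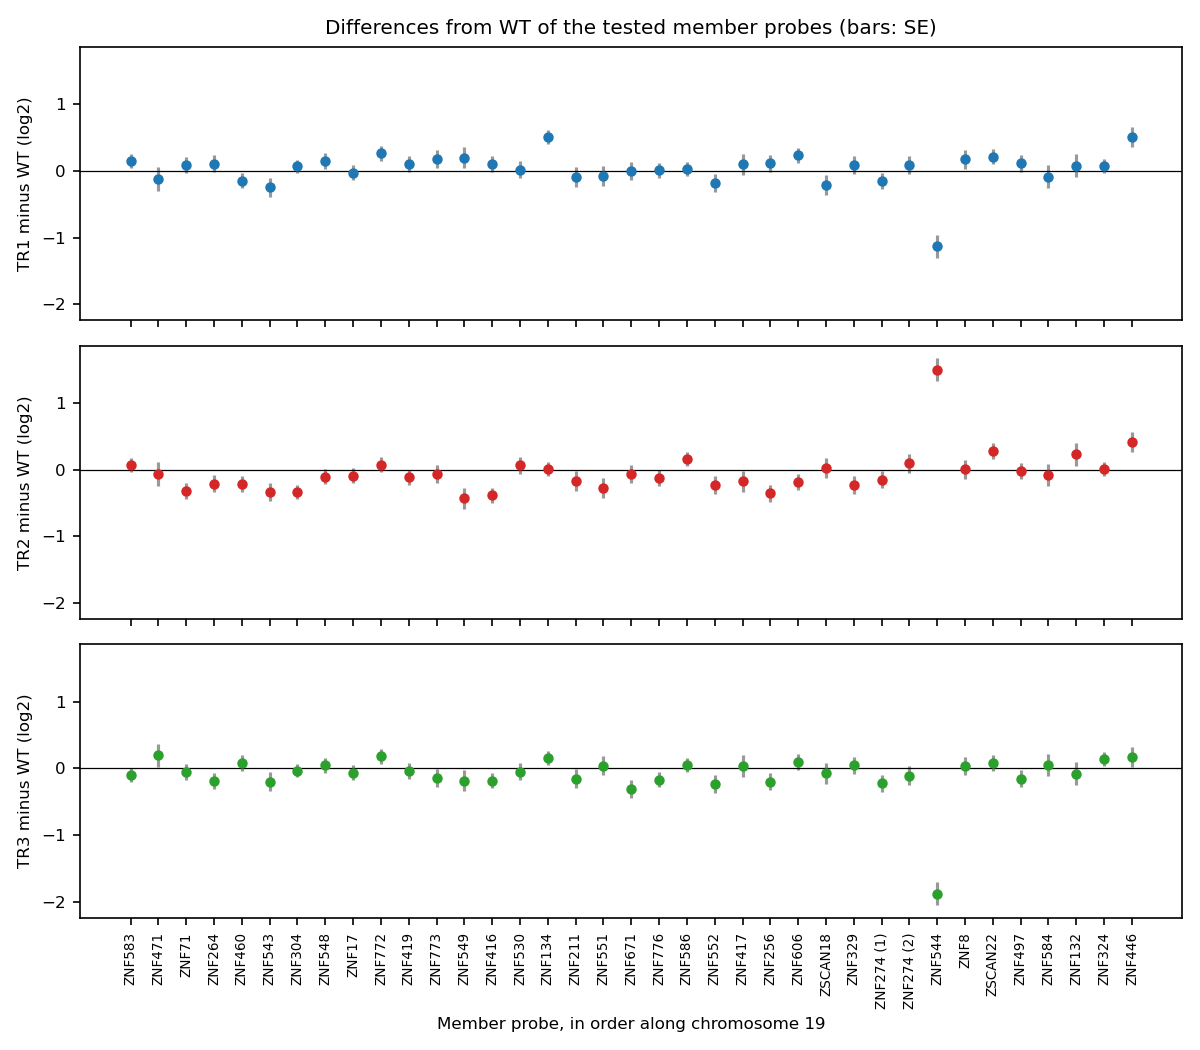
Log2 difference from WT (vertical axes, with SE as bars) of the 37 tested member probes in order along the chromosome, for TR1, TR2 and TR3 from top to bottom. ZNF544 stands at -1.13, 1.5 and -1.88, and every other probe lies between -0.43 and 0.51.

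Most of the members with the strongest signal moved little. For ZNF586, ZSCAN18, ZNF17 and ZNF324 the log2 differences from WT lay between -0.21 and 0.16. ZNF274 and ZNF256, given above, are also among the brightest. The brighter ZNF274 probe had -0.23 in TR3 and was not called. ZNF256 was the exception, with -0.36 in TR2, a span of 0.47 and a call with the replicate block. ZNF586 read 804 and 835 in WT, 785 and 787 in TR1, 991 and 829 in TR2, and 932 and 912 in TR3, with log2 differences of 0.03, 0.16 and 0.04 (each ± 0.11). ZSCAN18, a SCAN domain gene known for promoter methylation in gastrointestinal tumours, read 486 and 618 in WT, 442 and 452 in TR1, 562 and 537 in TR2, and 535 and 604 in TR3. In intensity both TR1 arrays were the lowest and the other lines overlapped, whereas after normalisation TR1 overlapped with WT and TR3. The log2 differences of ZSCAN18 were -0.21, 0.02 and -0.08 (each ± 0.15).

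ZNF17 read 426 and 444 in WT, 419 and 380 in TR1, 445 and 383 in TR2, and 441 and 474 in TR3, and its line means spanned 0.09, the smallest span among the tested members. ZNF324 read 329 and 334 in WT, 322 and 330 in TR1, 349 and 329 in TR2, and 410 and 384 in TR3. TR3 was highest before normalisation, and the log2 differences after it were 0.08, 0.01 and 0.14 (each ± 0.10).

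Genes of the same interval outside the list were measured by the same fit. The annotation places 132 genes between the outermost members, 72 of them protein coding. The array held 10 other zinc finger genes of the interval, of which 5 were tested (ZFP28, ZIM3, ZNF805, ZIK1 and ZNF324B), and none was called (limma, lowest adjusted p = 0.20), nor with the replicate block. At an unadjusted p under 0.05 there were 2 in TR1, 1 in TR2 and 0 in TR3, where 16.1%, 11.6% and 9.9% of the tested probes of all named genes were. Largest were the differences of 0.40 ± 0.14 for ZFP28 in TR1 (adjusted p = 0.20, limma), -0.38 ± 0.17 for ZNF805 in TR2 (adjusted p = 0.44) and 0.36 ± 0.15 for ZIM3 in TR1 (adjusted p = 0.27). The imprinted gene PEG3 and its neighbour ZIM2 were detected on no array. The 6 genes of the interval that encode no zinc finger protein (USP29, DUXA, AURKC, VN1R1, C19orf18 and A1BG) were detected on both arrays of no line and not tested.

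Most of the factors through which KRAB zinc finger proteins act were on in every line. Of 30 listed genes for co-repressors, heterochromatin and DNA methylation, 29 were on the array. Of these, ATF7IP and TET2 were detected on no array and were not tested. The 27 tested genes were detected on all 8 arrays (93.1% of the 29, beside 56.9% of all named genes). None of their 30 tested probes was called (limma, lowest adjusted p = 0.126), and at an unadjusted p under 0.05 there were 4 in TR1 (13.3%), 2 in TR2 (6.67%), 1 in TR3 (3.33%) and 4 among the subclones (13.3%). Over all named genes these shares were 16.1%, 11.6%, 9.9% and 17.7% of tested probes. TRIM28, the scaffold, had log2 differences of 0.16, 0.01 and 0.21, and SETDB1, the methyltransferase, of 0.15, 0.03 and -0.20. MORC3, a nuclear ATPase of silenced chromatin, had -0.41 in TR1 and -0.43 in TR2 (adjusted p = 0.13 and 0.19). With the replicate block it was -0.33 and -0.34 and was called lower in both (adjusted p = 0.028 and 0.036). CBX5, which encodes heterochromatin protein, had 0.35 in TR1 (adjusted p = 0.13) and with the block 0.28 (adjusted p = 0.043). TET1, an oxidase of methylated cytosine, had -0.40 in TR3 (adjusted p = 0.39). MORC2 was called among the subclones with the block alone (adjusted p = 0.012), as was CBX5 (adjusted p = 0.043).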

How the data were processed

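RNA of WT, TR1, TR2 and TR3 was measured on 8 arrays. The deposited table gives each probe a summarised, linear intensity and a detection p-value on every array, per the file headers. The authors also deposited processed intensity values of the same arrays, which are linear, have medians of 77.2 to 77.21 and rank the probes as the raw columns do (rank correlation 1). Their normalisation is not stated, limma is named in the submitters' processing notes with no role, and the sources used here name neither the scanner software nor the bead summary. The raw columns are lettered A and B, whereas the processed ones are numbered by replicate, and no letter was assigned to a number.

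Intensities were corrected with normexp (background from the detection p-values, offset 16), taken to log2 and quantile normalised with limma 3.58.1 in R 4.3.3. A probe entered the tests when both arrays of some line detected it at 0.05, which held for 13130 of 22184. The 8 arrays shared a model of 4 line means (lmFit, eBayes; 4 residual and 5.66 prior degrees of freedom), and Benjamini-Hochberg adjustment ran over all tested probes. A probe was called at an adjusted p under 0.05. The number of arrays limits the precision, and p-values measure only the spread between these duplicates.

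The platform annotation gives 1 symbol for 19715 probes, none for 2469 and several for 0, and 19695 symbols were updated by gene identifier to the GRCh38.p14 annotation, used for names and gene order and for the RefSeq promoter windows. Where neither array of a line detected a probe, folds are bounds under this background correction and normalisation. For these the dim line was given, on each array, the signal of the faintest detected probe, or its own signal if that was higher.

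Members given array by array are those that switched by detection, those called in any comparison, the 6 of highest mean and the 10 of widest span, 16 in all. From each other list the called genes and up to 3 of largest difference are named. Members and lists were chosen with earlier results of these data known. Differences between replicate 2 and replicate 1 correlated in all 6 pairs of lines (r from 0.28 to 0.432, across genes, which are not independent). The numbers were therefore taken to pair the samples. The replicate block was fitted only on the processed values, since no letter was assigned to a number. The matching probe ranks were not used to make that assignment, and the main fit holds no replicate term. Alternatives were the background correction, normalisation, dim-probe filter, source of values, block, variance prior, arrays in the fit, each array left out, the detection threshold and the probe that stands for a gene.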

Additional observations from a re-analysis of the deposited data

Results flagged for a closer look

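ZNF544 moved in opposite directions in 2 subclones under the same contrast against WT. Its level in TR3 minus that in TR2 was -3.38 on the log2 scale, with both TR2 arrays above and both TR3 arrays below both WT arrays. The TR2 call against WT was lost without TR2 array A, and the TR3 call held under all 15 alternatives.

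ZNF792, a zinc finger gene of chromosome 19 outside the cluster, showed the same order of lines, TR2 above WT above TR1 and TR3. It was chosen after its values were seen. The intensities were 81.9 and 78.9 in WT, 65.4 and 61.3 in TR1, 132 and 128 in TR2, and 62.7 and 63.8 in TR3. It was detected on both arrays of WT and TR2 and on neither array of TR1 and TR3. The log2 difference from WT was -0.76 ± 0.11 in TR1 (adjusted p = 0.0080, limma), 0.98 ± 0.11 in TR2 (adjusted p = 0.0047) and -0.94 ± 0.11 in TR3 (adjusted p = 0.0087). TR3 minus TR2 was -1.92, and the moderated F test among the subclones gave an adjusted p of 3.4e-05. Under the background correction used, TR2 was at least 2.99-fold above TR1 and at least 3.17-fold above TR3. WT was at least 1.52-fold above TR1 and 1.61-fold above TR3.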

How the results depend on the processing

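Across 15 settings for the 16 members given array by array, 720 differences were recomputed. Of these, 705 kept their side of the threshold, 12 lost their call and 3 gained one. No called difference changed sign. Among uncalled ones, 23 differences of 10 members did, each with 1 array left out, and all had been between -0.21 and 0.20 and came to between -0.20 and 0.19. The ZNF544 difference ran from -1.4 to -0.64 in TR1 (called in 13 of 15), from 1.13 to 1.77 in TR2 (14 of 15) and from -2.16 to -1.04 in TR3 (15 of 15). That of ZNF134 in TR1 ran from 0.41 to 0.53 (called in 6 of 15). Members called for TR1, 2 as reported, were 1 with no filter on dim probes, 1 with the arrays of the lines compared alone, 0 to 1 with an array left out, and 3 with the replicate block, which added ZNF446. For TR2, 1 as reported, they were 3 with the replicate block and 0 to 1 with an array left out. Among the subclones, 1 as reported, they were 2 with no background correction, 2 on the authors' processed values without the block and 5 with it. Beyond these the block changed no call of a member. Counts of detected members per line stayed within 1.5 times under a detection threshold of 0.01 and with 1 probe per gene. Over all probes, the calls for TR1, TR2, TR3 and among the subclones were 295, 83, 39 and 487 as reported, 1151, 510, 296 and 1675 with the block, and 169, 46, 17 and 338 with no filter on dim probes. With an array left out they ran from 110 to 262, 28 to 76, 11 to 32 and 250 to 511. For TR2 a trended robust prior gave 128 and for TR3 59, and the arrays of the lines compared alone gave 166, 57 and 20 for TR1, TR2 and TR3. The cause of these changes was not tested beyond what the fewer arrays or other probes tested entail. Signal near background limits ZNF8, ZNF471, ZNF552 and the members that were not tested.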
